A study of Mus musculus with 10 samples.

Results

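The genes described here encode the protein components of the cytoplasmic ribosome in mouse. They were chosen by symbol: protein-coding genes named Rpl or Rps with a number, together with Rplp0, Rplp1, Rplp2 and Rpsa, with the Rps6k kinases left out. Of 84 genes with such a symbol, 82 had 10 or more reads in at least 5 of the 10 libraries, and these 82 (50 of the large subunit, 32 of the small subunit) are the members, out of 48526 rows of the count table. Just outside that threshold were Rpl10l, with 7 reads in all, and Rpl39l, with 74 reads and 10 or more in 3 libraries. Just inside it was Rpl24, with 251 reads and 10 or more in 8 libraries. Of the members, 5 are paralogs that stand beside a canonical gene (Rpl3l, Rpl7l1, Rpl22l1, Rpl36al and Rps27l). Fau, which encodes a ribosomal protein fused to a ubiquitin-like protein, and Rack1, a ribosome-bound scaffold, are not taken in by the symbol rule and are given with the related genes.

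RNA sequencing was done on sorted cells labelled aortic endothelial cells from mice whose strain is given as ApoE. There were 5 libraries from stressed mice, exposed to acute mental stress for 3 h a day over 3 days in a row, and 5 from non-stressed mice of the same strain. The labels give no age, and do not say whether each library came from 1 animal or a pool, so the spread between libraries may be in part technical. The question was what acute stress changes in these cells, and here it was put to the ribosomal protein genes.

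The libraries held between 18020220 and 38237346 counts. Of 11 endothelial marker genes, Tek, Emcn and Cldn5 were at 0 in every library and Cdh5, Nos3 and Egfl7 stayed under 1 CPM, counts per 1000000 counts, in every library. The 11 genes summed to 39.6 to 91.2 CPM in non-stressed and 34.1 to 85.1 CPM in stressed libraries. In contrast, 10 monocyte and macrophage markers summed to 24536 to 36479 CPM and 29246 to 36206 CPM, so the data go against the endothelial label and the libraries are called here by their stress label alone. Both groups mixed libraries with Xist reads (non-stressed 1 and 5, stressed 1 and 5) and libraries with Ddx3y reads, from the Y chromosome (the other 6). In bulk RNA, fewer cells of a type and less RNA per cell cannot be told apart.

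A ribosome joins a small subunit, which reads the mRNA, with a large subunit, which forms the peptide bonds. Each subunit is an RNA scaffold with a set of proteins, most of which are needed in equal numbers. Most of these proteins are encoded by a single functional gene, with many processed pseudogenes elsewhere in the genome. Their mRNAs are TOP mRNAs: they start with a cytosine followed by an uninterrupted run of pyrimidines, the 5′ terminal oligopyrimidine tract, through which the mTORC1 pathway and LARP1 control their translation. Because that control acts on translation and mRNA storage, it need not be seen in mRNA levels.

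The sequences around the start sites of the genes whose values the results turn on are shown with their pyrimidine runs. Promoter sequences from RefSeq (build GRCm38.p6) were found for 62 of the 82 members. Each line below holds 30 bases, 15 on either side of the RefSeq start, written 5′ to 3′ on the strand of the gene, with the longest unbroken run of C and T in capitals. Of the 62 RefSeq starts, 47 lay within 100 bases of the start of the same gene in GENCODE M21. Among the genes printed below, Rpl15, Rps18 and Rps23 did not, with distances of 405, 336 and 164 bases. The first lines are members with the smallest p-values on the higher side and then on the lower side of the stress comparison, as far as the table holds them, and the last lines are canonical genes and their paralogs.
Rpl15: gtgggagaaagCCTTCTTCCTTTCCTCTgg
Rpl4: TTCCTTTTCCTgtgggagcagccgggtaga
Rps18: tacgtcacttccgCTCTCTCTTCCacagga
Rpl6: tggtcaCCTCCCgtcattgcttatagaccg
Rpl7l1: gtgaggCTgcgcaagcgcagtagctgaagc
Rps13: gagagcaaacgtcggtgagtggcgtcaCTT
Rpl35a: gcggggcgtgcgTCCCacaaggccgcgcgg
Rps23: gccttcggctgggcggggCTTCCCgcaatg
Rps27: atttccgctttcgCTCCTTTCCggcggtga
Rps27l: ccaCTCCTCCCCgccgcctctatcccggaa
Rpl22: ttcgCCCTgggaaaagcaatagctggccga
Rpl22l1: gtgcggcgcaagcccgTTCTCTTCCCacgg
Rps6: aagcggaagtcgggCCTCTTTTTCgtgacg

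These windows lie at chr14:18270972-18271001 (Rpl15, minus strand), chr9:64173372-64173401 (Rpl4, plus strand), chr17:33955651-33955680 (Rps18, minus strand) and chr5:121204486-121204515 (Rpl6, plus strand). The next are at chr17:46782642-46782671 (Rpl7l1, minus strand), chr7:116334176-116334205 (Rps13, minus strand), chr16:33056438-33056467 (Rpl35a, plus strand) and chr13:90923107-90923136 (Rps23, plus strand). The paralog pairs are at chr3:90213634-90213663 (Rps27, minus strand), chr9:66946071-66946100 (Rps27l, plus strand), chr4:152325711-152325740 (Rpl22, plus strand) and chr3:28805493-28805522 (Rpl22l1, plus strand), and Rps6 is at chr4:86857353-86857382 (minus strand). The run was 17 bases long in Rpl15, 11 in Rpl4 and Rps18 and 6 in Rpl6. It was 2 bases in Rpl7l1, 3 in Rps13, 4 in Rpl35a and 6 in Rps23. Rps27 and Rps27l each had a run of 9 bases, while Rpl22 had one of 4 and Rpl22l1 one of 10.

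Long pyrimidine runs near the start were common among the members. The run could lie anywhere in the 30 bases and did not have to touch the start or begin with C there. It is therefore not a count of TOP tracts. In Rpl4 and Rps27l, for example, it lay wholly before the RefSeq start. The longest run had a median of 6 bases in the 62 members and of 4 bases in the 19538 promoters of all genes of the count table with a RefSeq start. A run of 8 or more was present in 25 of 62 members (40.3%), against 11.7% of all these promoters and 12.0% of the 9660 promoters of tested genes. By subunit it was present in 16 of 38 large-subunit and 9 of 24 small-subunit genes. In the 300 bases from 250 before to 50 after the start, searched on both strands, the ETS-type motif CCGGAAG was present in 24 members (38.7%) and in 19.1% of the promoters of tested genes. The YY1-type motif AAGATGG, which can share its first letters with the end of CCGGAAG, was present in 14.5% of members and 7.55% of the promoters of tested genes. The GC box GGGCGG was present in 61.3% and 63.5%, and TATAAA in 9.68% and 6.85%. A match of letters is a description of the promoter, not a bound site. The 25 members with a run of 8 or more had a median log2 fold change of 0.06 between stressed and non-stressed libraries and the 37 with a shorter run one of 0.05.

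Ribosomal protein mRNAs made up a small and steady part of the libraries. Their share of all counts in the non-stressed libraries 1 to 5 was 2.45, 2.76, 2.59, 2.78 and 2.70%. In the stressed libraries 1 to 5 it was 2.52, 2.60, 2.82, 2.96 and 2.79%. The ranges overlap, with the lowest library non-stressed and the highest stressed. The non-stressed mean was 2.65% ± 0.137 and the stressed mean 2.74% ± 0.180 (SD over 5 libraries each). The difference of 0.083 percentage points was smaller than either SD, and it was 0.080 points within the libraries with Xist reads and 0.085 within those with Ddx3y reads. It was 0.026 points without stressed library 4, 0.031 without non-stressed library 1 and 0.138 without stressed library 1.

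The ratio of summed counts between the subunits stayed within a few percent over the libraries, while a measure by the median gene varied more. Large-subunit genes took 1.47% ± 0.0707 of non-stressed and 1.52% ± 0.0984 of stressed counts (SD over 5 libraries each). Small-subunit genes took 1.19% ± 0.0671 and 1.22% ± 0.0812 (SD, n = 5 each). Counts of large-subunit genes over counts of small-subunit genes came to 1.25, 1.24, 1.26, 1.22 and 1.23 in the non-stressed libraries and to 1.25, 1.26, 1.25, 1.25 and 1.25 in the stressed libraries. All 10 ratios lay between 1.22 and 1.26, and the groups overlapped. On the log2 scale the ratio was 0.31 ± 0.02 in non-stressed and 0.32 ± 0.0064 in stressed libraries (SD, n = 5 each), a difference of 0.01. The median log2 CPM of large-subunit genes minus that of small-subunit genes was -0.34, -0.31, -0.25, -0.28 and -0.22 in non-stressed and -0.15, -0.26, -0.22, -0.14 and -0.23 in stressed libraries. By this measure 3 of 5 stressed libraries were above every non-stressed one. The difference between the groups was 0.08, larger than the SDs of 0.05 and 0.05 (n = 5 each). This measure follows the gene in the middle of the order, which can be another gene in another library. Taken gene by gene, the median log2 fold change was 0.049 over the large and 0.045 over the small subunit. A ratio of counts depends on gene number and length and is not a ratio of molecules.

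**Figure D1:**
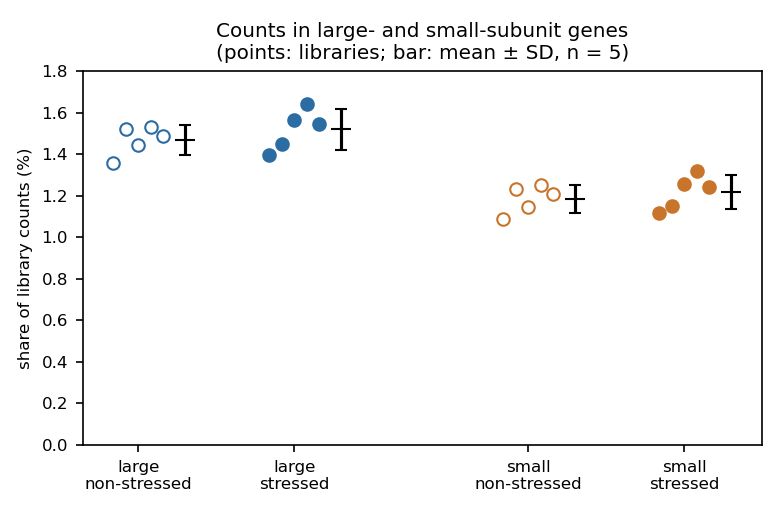
Share of each library's counts (percent, vertical axis from 0) in the 50 large-subunit genes (blue) and the 32 small-subunit genes (orange), with open points for the 5 non-stressed and filled points for the 5 stressed libraries in the order 1 to 5, and bars for the mean ± SD. The points of both groups overlap for each subunit, around means of 1.47 and 1.52% for the large and 1.19 and 1.22% for the small subunit.

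No ribosomal protein gene passed the test of a difference between stressed and non-stressed libraries. In edgeR's quasi-likelihood test with Benjamini-Hochberg adjustment over the 13334 genes tested, 0 of the 82 members passed an adjusted p of 0.05, as against 1 gene in the whole table (0.0075%). At an unadjusted p under 0.05 the count was again 0 of 82, where 5.53% of all tested genes (738) passed. Of 745 other genes with levels between the quartiles of the members' levels, 86 passed. DESeq2, which called 0.114% of 16598 genes, and limma-voom each called 0 members. The lowest p in the list was 0.0515, for Rpl15. No member had all 5 stressed libraries above or all 5 below the non-stressed libraries, where 0.592% of all tested genes were separated upward and 0.517% downward. Of the 745 other genes of like level, 8 were separated upward and 4 downward.

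The absence of calls went with narrow estimates. The median standard error of the log2 fold change was 0.08 over the members and 0.18 over all genes tested. It was also 0.08 in the 745 other genes with levels between the quartiles of the members' levels. For 74 of the 82 members the 95% interval of the fold change lay within a 1.25-fold change in either direction, as it did for 23.2% of all tested genes. Within 1.5-fold it lay for 79 members and 52.8% of tested genes. The 3 exceptions at 1.5-fold were Rpl23a, Rpl24 and Rpl3l, all of them with few reads. Rpl13a, Rpl15, Rpl22l1, Rpl31 and Rps27l were within 1.5-fold but not within 1.25-fold. In size, the estimated change was under 1.2-fold for 80 members (70.5% of all tested genes) and under 1.1-fold for 78.

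The small differences leaned one way. Estimated fold changes were above 1 for 67 of 82 members, 41 of 50 in the large subunit and 26 of 32 in the small subunit, where 50.9% of all tested genes were above 1. The median log2 fold change was 0.05 over the members (a 1.03-fold level), 0.05 over the large subunit and 0.05 over the small subunit, and 0.0045 over all tested genes. Of the 745 other genes of like level, 45.5% were above 1, with a median log2 fold change of -0.017. The lean was smaller without either of 2 libraries. Without stressed library 4 the median over the members was 0.0060 and 45 members were above 1, and without non-stressed library 1 these values were 0.01 and 47. Without stressed library 1 the median was 0.08. The small-subunit median fell below 0 without stressed library 4, at -0.0073.

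**Figure D2:**
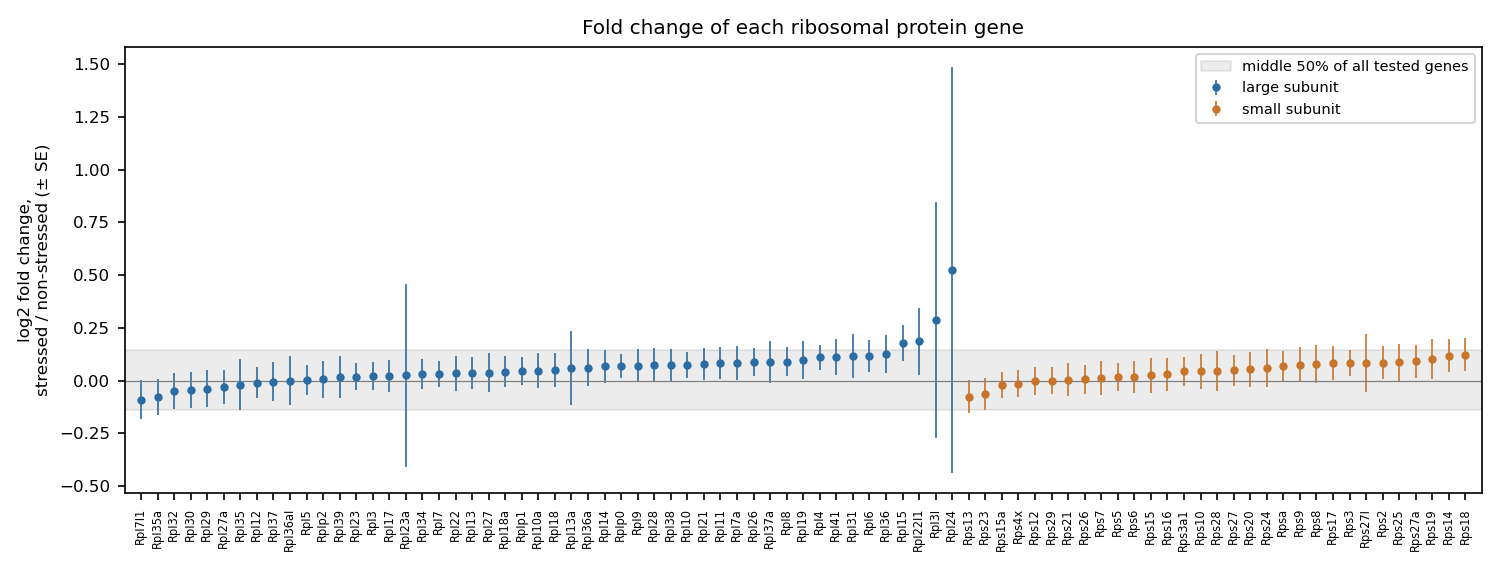
Log2 fold change of stressed over non-stressed libraries (vertical axis) for 81 of the 82 genes, sorted within the large (blue) and the small subunit (orange), with bars of ± 1 standard error and a grey band for the middle 50% of all tested genes. All points but those of Rpl15, Rpl22l1, Rpl3l and Rpl24 lie inside the band, and the genes with the longest bars are Rpl24, Rpl3l and Rpl23a.

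Library by library, the ribosomal protein genes moved together. For each library the deviation of a gene was taken as its log2(CPM + 1) minus its mean over the 10 libraries. The median deviation over the members was -0.15, 0.05, -0.04, 0.06 and -0.0091 in non-stressed libraries 1 to 5. It was -0.12, -0.07, 0.08, 0.15 and 0.06 in stressed libraries 1 to 5. Each group thus held a library well below 0, and the highest value was in stressed library 4. The large-subunit median (-0.15 to 0.15) and the small-subunit median (-0.15 to 0.14) followed the same libraries. The median over all tested genes stayed between -0.01 and 0.02, near 0 as the scaling of the libraries by TMM factors tends to hold it. Stressed library 4 held the highest level of 47 members, and stressed libraries 3 and 5 that of 11 each. Non-stressed library 1 held the lowest level of 37 members and stressed library 1 that of 23.

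Other genes had a like profile. The 530 tested protein-coding genes outside the members with transcripts under 1000 bases had median deviations of -0.14 in non-stressed library 1, -0.11 in stressed library 1 and 0.14 in stressed library 4. Between stressed and non-stressed libraries, 357 of these 530 short genes had a fold change above 1, with a median log2 fold change of 0.08. The mitochondrial ribosomal proteins, encoded by other genes, gave -0.15, -0.13 and 0.14 in the same 3 libraries. The mean log2 level of 10 neutrophil markers, none of which was at 0 throughout, was 6.35, 5.95, 5.33, 3.99 and 4.10 in non-stressed libraries 1 to 5. It was 6.50, 6.64, 4.99, 5.32 and 4.74 in stressed libraries 1 to 5. It was highest in stressed library 2, stressed library 1 and non-stressed library 1. These were the libraries with the lowest member medians, at -0.07, -0.12 and -0.15. Non-stressed library 2 came next, with a member median of 0.05. Stressed library 4, with the highest member median, was in the middle of the range. Their summed level ranged from 815 to 2639 CPM in non-stressed and from 1092 to 2408 CPM in stressed libraries. With that mean level as a covariate the median log2 fold change of the members was 0.08 and 68 members were above 1. With the mean level of 8 B cell markers, which summed to 79.1 to 417 CPM in non-stressed and 104 to 253 CPM in stressed libraries, it was 0.04 and 63. With the presence of Ddx3y reads it was 0.05 and 66. No member was called in any of these fits. The 10 T and NK cell markers had a mean log2 level of 3.14, 3.61, 2.57, 1.56 and 1.58 in non-stressed and of 3.16, 3.04, 1.68, 1.23 and 1.01 in stressed libraries. The highest of these levels was in non-stressed library 2, where the member median was above 0. Next came stressed library 1, non-stressed library 1 and stressed library 2, where it was below 0. The lowest level was in stressed library 5, where the member median was above 0. These markers summed to 25.3 to 126 CPM in non-stressed and 11.3 to 91.8 CPM in stressed libraries. The 7 erythroid markers had a mean log2 level of 6.20 ± 0.40 in non-stressed and 6.83 ± 0.87 in stressed libraries (SD, n = 5 each). By this level 3 stressed libraries were above every non-stressed one. The 7 platelet markers were at 3.65 ± 0.70 and 4.10 ± 0.50, and the 6 dendritic markers at 3.26 ± 0.44 and 3.02 ± 0.32. The part of these cell types in the profile, and that of transcript length, was not tested.

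**Figure D3:**
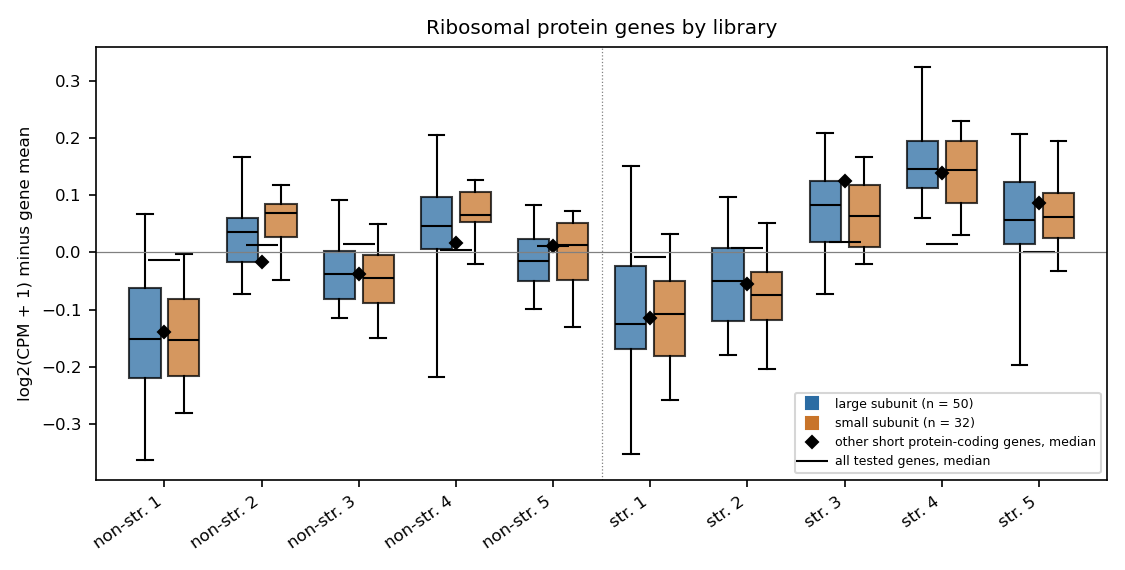
Deviation of log2(CPM + 1) from each gene's mean over the 10 libraries (vertical axis), as boxes (quartiles and median, whiskers from the 5th to the 95th percentile) for the 50 large-subunit (blue) and 32 small-subunit genes (orange) in each library. Diamonds are the median of 530 other short protein-coding genes and short lines that of all tested genes; the blue and orange boxes rise and sink together, from -0.15 in non-stressed library 1 to 0.15 in stressed library 4.

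The member with the smallest p was Rpl15, a large-subunit protein. It stood at 105, 125, 117, 103 and 116 CPM in the non-stressed libraries and at 134, 118, 137, 138 and 115 CPM in the stressed libraries. Of the stressed libraries, 3 were above every non-stressed one and the other 2 lay among them. The log2 fold change was 0.18 ± 0.08 (SE) with an adjusted p of 0.893 in edgeR's quasi-likelihood test. Rpl4, a large-subunit protein that lines the peptide exit tunnel, was at 998, 1169, 1094, 1131 and 1113 CPM and at 1137, 1142, 1247, 1226 and 1193 CPM. The groups overlapped between 1137 and 1169 CPM, and the log2 fold change was 0.11 ± 0.06 (SE; adjusted p = 0.898, edgeR). Rps18, Rpl6 and Rps14 followed, each with a log2 fold change of 0.12, an SE of 0.08 and an adjusted p between 0.946 and 0.949 (edgeR).

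Among the members with the smallest p on the lower side was Rps13, a small-subunit protein. It was measured at 316, 339, 328, 327 and 320 CPM in non-stressed and at 270, 274, 316, 357 and 328 CPM in stressed libraries. Stressed libraries 1 and 2 were the lowest. Its stressed libraries lay on both sides of the non-stressed ones, and its log2 fold change was -0.08 ± 0.08 (SE; adjusted p = 0.961, edgeR). Rpl7l1 (log2 fold change -0.09), Rpl35a (-0.08) and Rps23 (-0.06) were others on that side.

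The genes of the stalk proteins did not pass the test, with groups that overlapped. Rplp0, Rplp1 and Rplp2 form the stalk of the large subunit, which recruits the elongation factors. Rplp0, often used as a reference gene for expression, was at 916, 995, 987, 1028 and 1023 CPM in non-stressed and at 1019, 1072, 1050, 991 and 1061 CPM in stressed libraries. The groups overlapped, and its log2 fold change was 0.07 ± 0.06 (SE; adjusted p = 0.950, edgeR), the smallest SE of all members. Rplp1 went from 552 ± 38.1 to 570 ± 29.0 CPM and Rplp2 from 383 ± 33.1 to 385 ± 43.6 CPM (SD, n = 5 each).

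Rpl5 and Rpl11, which as part of a small complex bind the p53 regulator Mdm2 when ribosome assembly fails, had log2 fold changes of 0.0015 and 0.08. Rpl11 was at 345, 356, 341, 362 and 368 CPM in the non-stressed libraries and more widely spread in the stressed libraries, at 317, 355, 386, 416 and 402 CPM. Of the stressed libraries, 3 were above the non-stressed range and 1 was below it. Rps6, whose protein is phosphorylated downstream of mTORC1, was at 211, 263, 235, 254 and 254 CPM and at 232, 234, 267, 260 and 239 CPM. The log2 fold change was 0.02 ± 0.08 (SE; adjusted p = 0.996, edgeR). Its groups overlapped between 232 and 263 CPM.

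Rps19 and Rps26, whose loss in humans causes Diamond-Blackfan anaemia, had means of 196 ± 20.3 and 211 ± 25.8 CPM, and of 236 ± 14.0 and 237 ± 14.1 CPM (non-stressed, then stressed, SD, n = 5 each). Rpsa, which is also known as a laminin receptor, was at 572 ± 32.3 and 600 ± 56.3 CPM. Rpl38, whose loss in mice changes the translation of Hox mRNAs, was at 99.98 ± 4.70 and 105 ± 7.96 CPM. Rps27a, which encodes a fusion of ubiquitin and a small-subunit protein, was at 387 ± 31.2 and 412 ± 36.1 CPM. None of these differences exceeded the larger of its group SDs, and none passed the test.

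The X chromosome carries 4 members: Rpl10, Rpl36a, Rpl39 and Rps4x. Rpl10 was at 447 ± 30.7 CPM in non-stressed and 470 ± 11.4 CPM in stressed libraries, and Rps4x at 525 ± 36.3 and 520 ± 18.9 CPM (SD, n = 5 each). Their log2 fold changes were 0.07 ± 0.06 and -0.01 ± 0.06 (SE), with adjusted p-values of 0.950 and 0.996 in edgeR's test.

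Levels of the members spanned a wide range per unit of transcript length. On the scale of CPM per kilobase of the longest basic protein-coding transcript, averaged over 10 libraries, the highest large-subunit genes were Rplp1 (1125), Rpl8 (763) and Rplp0 (747). The highest small-subunit genes were Rps14 (965), Rps15 (911) and Rps29 (907). The lowest were Rpl24 (1.39), Rpl3l (2.06) and Rpl23a (5.42) in the large subunit and Rps15a (55.9), Rps20 (64.5) and Rps27l (82.0) in the small subunit. Of 81 pairs of neighbours in this order, the ranges over the libraries were apart in 1. Neighbours were not compared within the same library, so an overlap of ranges does not show that their levels are equal. The median was 268 over the large subunit and 372 over the small subunit. The place of single genes depended on the transcript taken as the length. With the shortest principal transcript, a choice made after the values were seen, Rps15a came to 453, the medians to 368 and 438, and the highest gene was Rps9 (1385).

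**Figure D4:**
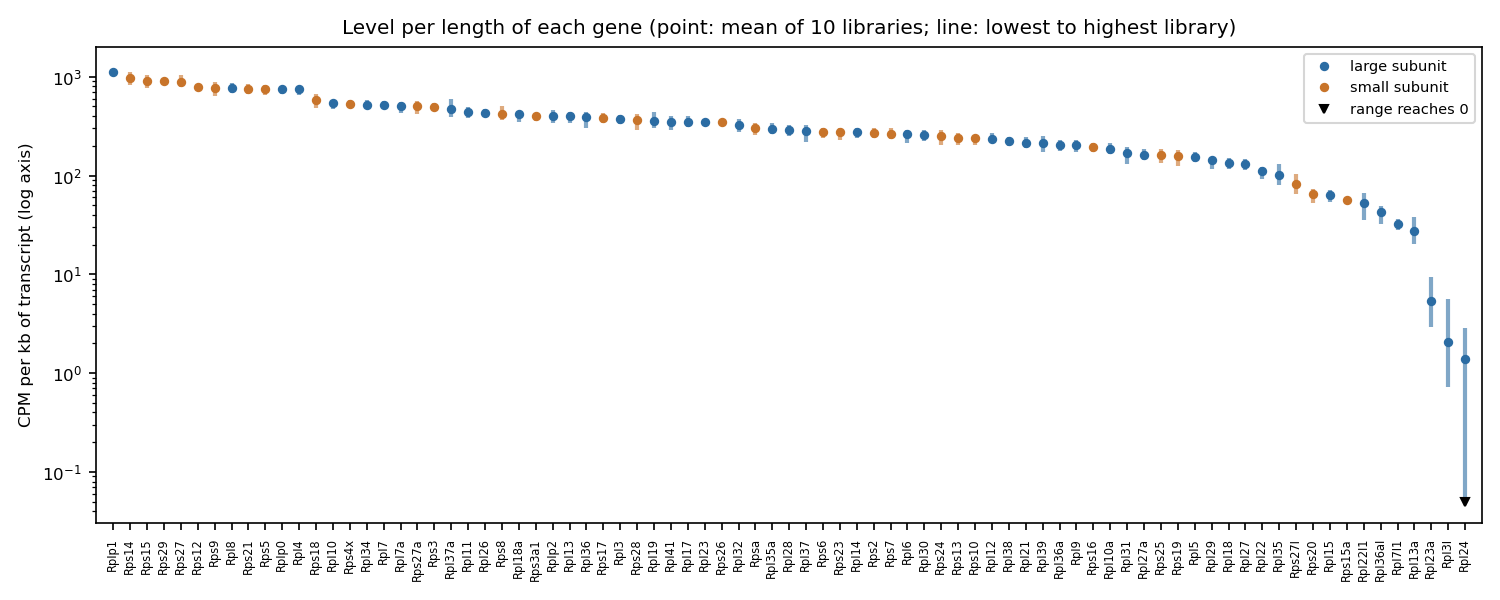
Level of 81 of the 82 genes in CPM per kilobase of the longest basic protein-coding transcript (log axis), in descending order, with large-subunit genes in blue and small-subunit genes in orange. Points are means over the 10 libraries and lines run from the lowest to the highest library; the order starts with Rplp1 at 1125 and ends with Rpl24 at 1.39, whose lowest library is at 0.

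Between libraries the levels varied little. The highest library was a median of 1.30 times the lowest over the members, and 73 of 82 members stayed under 1.5 times. The within-group SD on the log2 scale had a median of 0.12 over the members, of 0.12 over the 745 other genes of like level and of 0.26 over all tested genes.

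Rpl24, Rpl23a and Rpl13a, which each encode a protein of the large subunit, stood far below the other canonical genes. Rpl24 was at 0, 1.07, 0.709, 1.94 and 0.139 CPM in non-stressed and at 1.06, 0.621, 1.45, 1.42 and 1.003 CPM in stressed libraries. It had 0 to 49 reads a library, and its log2 fold change of 0.52 ± 0.96 (SE; adjusted p = 0.987, edgeR), the largest of the members, is an estimate from few reads. Rpl23a was at 3.00 ± 1.35 and 3.07 ± 1.32 CPM, and Rpl13a at 28.2 ± 4.25 and 29.4 ± 7.88 CPM (SD, n = 5 each). Of the 50-base stretches in the shortest principal transcripts of these genes, 81.7, 85.7 and 57.4% occur in transcripts of other genes, on either strand. The median over the members was 60.6%, and 80 of 82 members shared at least 1 such stretch. Exons of 39 members overlap those of another gene on either strand, which covers 47.0% of exon bases for Rpl24, 62.3% for Rpl23a and 35.4% for Rpl13a. On the same strand 28 members overlap another gene, and the shares are 47.0, 2.60 and 35.4%. The sources used here do not give how reads that fit several places were counted. The level of members with near-identical copies is therefore uncertain, and the part of shared sequence in these low levels was not tested. The 274 rows with a ribosomal protein symbol ending in -ps, with or without a number, held between 0.251 and 0.321% as many counts as the members. Pseudogenes under other symbols were not counted here, so this is not the share of all ribosomal protein pseudogenes.

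The paralogs differed in their level relative to their canonical partners, and for 3 of the 5 that level depended on the transcript taken as the length. Rpl3l, known as a heart and skeletal muscle form of Rpl3, was at 4.69, 2.40, 2.55, 1.07 and 2.05 CPM in non-stressed and at 7.70, 2.97, 2.34, 1.59 and 1.003 CPM in stressed libraries. Replicate 1 was the highest in both groups, and per principal-transcript length the gene came to 0.508 ± 0.271% of Rpl3 in non-stressed and 0.638 ± 0.604% in stressed libraries (SD, n = 5 each). None of its 50-base stretches is shared with another gene. For the partners the shared part was 85.6% in Rpl3, 53.3% in Rpl7, 24.5% in Rpl22, 85.5% in Rpl36a and 98.6% in Rps27. The percentages of a partner are therefore uncertain, as the handling of reads that fit several places is not given. Per principal-transcript length Rpl7l1 came to 12.8 ± 0.460 and 11.8 ± 1.65% of Rpl7. Rpl36al, a near-identical copy of Rpl36a on another chromosome, came to 51.6 ± 6.31 and 48.8 ± 5.54% of it. With the longest transcripts, as used for the levels above, these values were 6.45 ± 0.231 and 5.95 ± 0.829% for Rpl7l1 and 21.3 ± 2.60 and 20.1 ± 2.28% for Rpl36al.

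Rpl22l1 is known to be repressed by the protein of its partner Rpl22, and Rps27l is known as a p53 target. Rpl22l1 was at 19.4, 28.9, 28.6, 29.7 and 30.7 CPM in non-stressed and at 22.0, 33.7, 35.8, 36.4 and 28.5 CPM in stressed libraries. Non-stressed library 1 and stressed library 1 were the low ones, and the groups overlapped. Its log2 fold change was 0.19 ± 0.16 (SE; adjusted p = 0.950, edgeR), and per principal-transcript length it came to 10.5 ± 0.960 and 11.6 ± 1.58% of Rpl22. With the longest transcripts it came to 45.3 ± 4.15 and 50.2 ± 6.84%, the highest of the paralogs by that length. Rps27l was at 37.9, 49.2, 46.5, 46.0 and 49.4 CPM and at 37.3, 39.7, 51.2, 59.7 and 54.9 CPM, so the stressed libraries lay on both sides of the non-stressed ones. Its log2 fold change was 0.08 ± 0.14 (SE; adjusted p = 0.981, edgeR), and it came to 7.99 ± 0.920 and 8.14 ± 1.27% of Rps27 by principal transcripts and 9.21 ± 1.06 and 9.37 ± 1.46% by the longest.

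**Figure D5:**
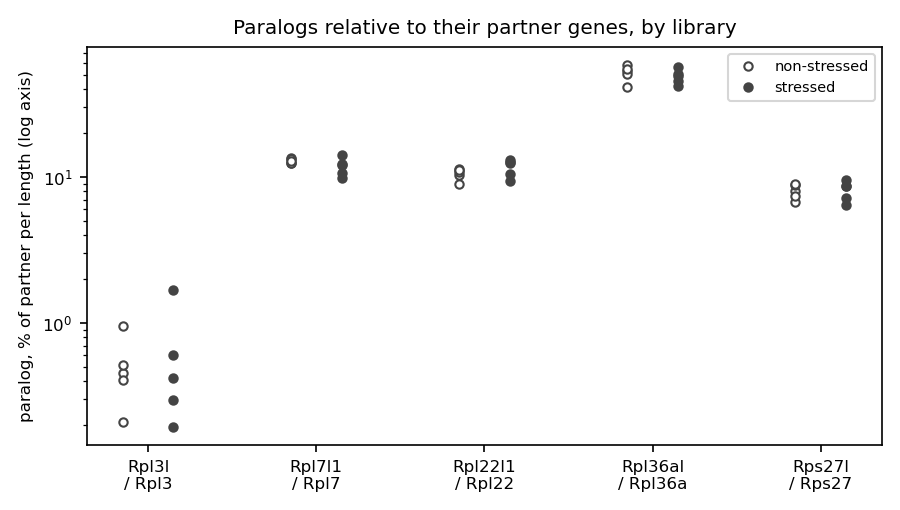
Level per principal-transcript length of each of the 5 paralogs as a percentage of its canonical partner (log axis), with open points for the 5 non-stressed and filled points for the 5 stressed libraries. The groups overlap for every pair, from about 0.508% for Rpl3l in non-stressed libraries to 51.6% for Rpl36al; with the longest transcripts the highest is Rpl22l1, at 45.3 and 50.2%.

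Genes that work with the ribosomal proteins did not pass the test either. The related gene lists were drawn up with earlier results of these data known. Of 34 tested translation factors and other TOP mRNAs, 20 had a fold change above 1 and 14 below. The median log2 fold change was 0.02, and 0 were called by edgeR. At an unadjusted p under 0.05, which 5.53% of all tested genes passed, there were 2. These were Vim, an intermediate filament gene (0.19), and Eif4g1, a scaffold of translation initiation (-0.14). Among the genes closest to the members, Fau was at 0.08, Rack1 at 0.05 and Eef1a1, which encodes the main elongation factor, at 0.03.

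Of 50 ribosome biogenesis genes, 20 were above 1 and 30 below, with a median of -0.03. At an unadjusted p under 0.05 there were 4, where 5.53% of all tested genes passed. Lower in the stressed libraries at that level were Heatr1 (-0.30), a factor for rRNA transcription and processing, Mdn1 (-0.43), an assembly ATPase, and Dkc1 (-0.34), the pseudouridine synthase of rRNA. Rrp9 (0.39) was higher, and Npm1, a nucleolar chaperone, was at -0.01. Adjusted p-values of this list started at 0.829 (edgeR). Their median had the opposite sign to that of the ribosomal proteins, with no gene called in either list. The middle 50% of the biogenesis genes ran from -0.14 to 0.09, on both sides of 0.

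Of 30 genes of the mTORC1 and MYC pathways, 16 were above 1 and 14 below, with a median of 0.01. At an unadjusted p under 0.05 there were 0, where 5.53% of all tested genes passed. Larp1, which binds the TOP tract, was at -0.13, Mtor at 0.08, Myc at -0.31 with an SE of 0.40, and Ddit4, an inhibitor of mTORC1 that glucocorticoids are known to induce, at 0.0025 with an SE of 0.40. The mitochondrial ribosomal proteins had 52 of 77 tested genes above 1 and a median of 0.09. Against the same 5.53%, 4 of these genes had an unadjusted p under 0.05: Mrps25 (0.56), Mrps26 (0.49), Mrpl37 (0.22) and Mrps14 (-0.33). None passed the adjusted threshold in edgeR's test.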

How the data were processed

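RNA was sequenced from 10 libraries (5 non-stressed, 5 stressed; a TruSeq Stranded kit, per the labels). The authors deposited raw read counts per Ensembl gene in 1 table. Trimmomatic, STAR and featureCounts on mm10 are named in the submitters' processing notes, while the sources used here do not give their versions, the strand setting or the handling of reads with several matches. Symbols came from GENCODE M21 (48144 of 48526 IDs matched; the 382 others held 0.0250 to 0.0344% of counts). The members and lists were chosen with earlier results of these data known.

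Counts were tested across all 13334 genes that passed filterByExpr (minimum count 10) with edgeR 4.0.16 in R 4.3.3: TMM factors, quasi-likelihood test, stressed against non-stressed, Benjamini-Hochberg threshold 0.05. CPM of the members and of the related genes are TMM-scaled, while those of the cell type markers use library totals. By library totals 3 counts correspond to 0.0785 to 0.166 CPM, which covers counting error only. The test was checked on simulated counts. No libraries agreed within sampling noise. Alternatives were other normalization factors, DESeq2 1.42.0, limma-voom (limma 3.58.1), no filter, a threshold of 0.1, covariates, the replicate number as a block, other transcript lengths and leaving out each library. Named members were the 5 with the smallest p in each direction, the 3 highest and lowest per length in each subunit, the paralogs with their partners, and a fixed list of well-known members. Related lists were named by up to 4 genes with the smallest p and a fixed set. Rpl31, Rpl39 and Rps9 were named after their values were seen. Sequences from chromosome 18, those of members missing from the promoter table, and the values of 1 member and 1 related gene that this rule names are not reported here.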

Additional observations from a re-analysis of the deposited data

Results flagged for a closer look

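Among 88 groups of 5 libraries checked for 1 library far from the other 4, there were 7 such cases, where chance gives about 1 in 20 groups. Stressed library 2 had the highest log2 ratio of large-subunit to small-subunit counts, 0.332306, with the next at 0.32021. Non-stressed library 1 was far below its group for Rpl22, at 187.755 CPM with the next at 226.687, and for its paralog Rpl22l1, at 19.4159 CPM with the next at 28.6445. Stressed library 1 was low for Rpl36a, at 89.4299 CPM with the next at 102.358, and for Rpsa, at 503.649 CPM with the next at 613.307. Stressed library 4 was high for Rps27, at 473.213 CPM with the next at 405.865. Stressed library 2 was low for Rps4x, at 486.643 CPM with the next at 523.57. Of the 7, 5 fell in the 3 libraries whose median deviation over all members was largest in size (non-stressed 1, stressed 1 and stressed 4).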

How the results depend on the processing

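In 21 alternatives, 0 members were called. The median log2 fold change over the members was 0.0060 to 0.076 with 1 library left out and 0.04 to 0.08 otherwise, over the large subunit 0.013 to 0.077 with 1 library left out, and over the small subunit -0.0073 to 0.076, negative only without stressed library 4. The replicate block gave a median of 0.05, 66 members above 1 and 0 calls. The labels do not say that a number marks a shared animal or day, and same-numbered libraries deviated together with correlations of 0.13, 0.16, -0.03, 0.12 and 0.12, libraries 3 and 4 correlating best with another number. The numbers were therefore not taken as pairs, although Xist or Ddx3y reads matched in all 5, and a batch or day shared by number was not tested. The difference in the large-to-small ratio was 0.0059 to 0.017 with 1 library left out, and 0.078 with medians of log2 CPM in place of sums. Median levels per kilobase were 127 (large) and 177 (small) with the union of exons and 368 and 438 with principal transcripts. Principal transcripts and the neutrophil covariate were chosen after seeing the data.

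Of 800 values of 40 named members under alternatives, 73 changed sign, in 17 members, all with fold changes near 1 or few reads. With 1 library left out, the ranges were -0.080 to 0.13 (Rpl13a), -0.028 to 0.076 (Rpl22), -0.25 to 0.27 (Rpl23a), -0.011 to 0.057 (Rpl3), -0.066 to 0.083 (Rpl36al), -0.37 to 0.61 (Rpl3l), -0.045 to 0.026 (Rpl5), -0.053 to 0.043 (Rplp2), -0.025 to 0.076 (Rps15), -0.044 to 0.0018 (Rps15a), -0.011 to 0.079 (Rps20), -0.028 to 0.032 (Rps26), -0.012 to 0.075 (Rps27), -0.0062 to 0.16 (Rps27l), -0.042 to 0.016 (Rps29), -0.059 to 0.011 (Rps4x) and -0.037 to 0.041 (Rps6). Rpl36al was -0.0022 with RLE factors, -0.0042 with upper-quartile factors, -0.0038 with TMM factors without the members, -0.0038 without a filter, -0.013 with the replicate block, -0.013 with the B cell covariate, -0.0019 in DESeq2 and -0.00041 in limma-voom. Rps29, in the same order without the block and limma-voom, was -0.0012, -0.0047, -0.0047, -0.0044, -0.0017 and -0.0012. Rpl5 was -0.0032 with upper-quartile factors, -0.0034 with TMM factors without the members, -0.0031 without a filter, -0.00039 with the B cell covariate and -0.000053 in DESeq2. Rpl23a was -0.0013 with the Ddx3y covariate, -0.018 with the neutrophil covariate and -0.070 in limma-voom, Rpl3l -0.21 and -0.022 in the last 2, and Rplp2 -0.0047 with the B cell covariate. Apart from the left-out libraries and lengths, whose construction changes the samples or lengths used, the cause was not tested.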
